A study of Mus musculus with 24 samples.

Results

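The comparison described here sets tumor-derived 4T1-T cells labelled shAsns-1 against tumor-derived 4T1-T cells labelled shAsns-2, with 4 RNA-seq libraries on each side. The libraries were chosen by their labels alone, are 8 of the 24 in the series, and were compared over all genes. 4T1-T is a line derived from the mouse mammary carcinoma line 4T1. Both labels name a short hairpin RNA against Asns, a hairpin being an RNA that is cut into a small interfering RNA and lowers its target mRNA. All 24 libraries carry the same treatment entries: cells infected with a hairpin, kept in DMEM to which non-essential amino acids were added, and selected with 6TG (6-thioguanine). The other 4 groups, also of 4 libraries each, are tumor cells with the control hairpin shRenilla, and cells from lung metastases with shAsns-1, shAsns-2 or shRenilla. All cells derive from a single parental line. 6TG kills cells that retain the purine salvage enzyme HPRT, so host cells should be lost in selection, but their loss was not tested. The labels do not say whether the letters A to D stand for separate mice, cultures or RNA preparations, so a p-value here reflects how far these libraries scatter, and part of that scatter may be technical.

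Asparagine synthetase, the product of Asns, makes asparagine from aspartate with glutamine as the nitrogen donor. Its gene is a classical target of ATF4, the transcription factor that is translated when amino acids are scarce and that also raises tRNA synthetase, amino acid transporter and serine synthesis genes. Carcinoma cells can also lose their epithelial character: adhesion, tight junction and keratin genes are turned off, often with factors of the SNAI, ZEB and TWIST families present, while mesenchymal genes are turned on. This shift is called epithelial-mesenchymal transition, and SNAI and ZEB proteins bind E-boxes of the form CAGGTG.

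The promoters of 3 genes on which the comparison turns are given first. Each is the 250 bases before a RefSeq gene start on GRCm38.p6, read 5′ to 3′ on the gene's strand. Asns is shown as the target of both hairpins, Epcam as an epithelial gene with a low level in the libraries labelled shAsns-1, and Fgfbp1 as the gene with the largest fall among those named by size of change. Capitals mark matches to the ATF4 element TGATGNAA (TTNCATCA on the other strand) and to the E-box CAGGTG, which reads as CACCTG from the other strand. The windows are chr6:7693210-7693459 (minus strand) for Asns, chr17:87635729-87635978 (plus strand) for Epcam and chr5:43981800-43982049 (minus strand) for Fgfbp1.
Asns: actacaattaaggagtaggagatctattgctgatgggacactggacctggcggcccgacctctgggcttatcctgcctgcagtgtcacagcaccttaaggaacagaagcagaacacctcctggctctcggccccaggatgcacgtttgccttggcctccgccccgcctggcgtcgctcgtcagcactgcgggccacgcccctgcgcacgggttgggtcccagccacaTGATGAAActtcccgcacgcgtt
Epcam: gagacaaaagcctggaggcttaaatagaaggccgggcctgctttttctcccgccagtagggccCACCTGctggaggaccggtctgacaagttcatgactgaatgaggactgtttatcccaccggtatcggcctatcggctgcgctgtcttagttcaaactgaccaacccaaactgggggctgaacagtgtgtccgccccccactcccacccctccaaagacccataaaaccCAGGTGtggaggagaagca
Fgfbp1: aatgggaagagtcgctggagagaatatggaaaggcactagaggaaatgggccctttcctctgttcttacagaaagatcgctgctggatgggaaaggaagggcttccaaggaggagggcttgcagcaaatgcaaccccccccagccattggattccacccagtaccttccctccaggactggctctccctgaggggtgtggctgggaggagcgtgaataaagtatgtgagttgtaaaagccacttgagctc
The Asns window holds TGATGAAA, which begins 23 bases before the RefSeq start. In the GENCODE M21 annotation the gene reaches to 7693254, so this stretch lies inside the gene there. Epcam holds 2 E-boxes, which begin 187 and 19 bases before its start. Neither motif lies in the Fgfbp1 window. Among all 32851 windows of this length, 3.45% hold the ATF4 element and 17.2% the E-box. A match is a stretch of letters and not evidence of binding.

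The 8 libraries held 8480908 to 38049196 counts, lowest in shAsns-2 A. Over all genes, log2 CPM (each gene's counts relative to the size of its library, scaled for composition) correlated at r = 0.9923 to 0.9951 between libraries labelled shAsns-1, at 0.9818 to 0.9904 between libraries labelled shAsns-2 and at 0.971 to 0.9809 across the labels. The first dimension of a multidimensional scaling held 53.8% of the variance and separated the labels, at -0.936 to -0.803 against 0.817 to 0.929. The second held 16% and spread the libraries labelled shAsns-2, from -1.11 in A to 0.679 in D. Krt8 and Krt18, keratins of simple epithelia, were present in both groups, at 184 to 245 against 201 to 232 CPM and at 207 to 267 against 210 to 317 CPM. They are 2 of 8 listed markers of mammary carcinoma epithelium. The other 6 were called lower with the label shAsns-1 by the test below, beside 15% of all genes. All 8 together summed to 446 to 594 against 837 to 942 CPM, with a median log2 change of -2.36. The summed level of lymphocyte, endothelial, lung epithelial, erythroid and adipocyte markers was at most 1.57 CPM per list in any of the 8 libraries, and 3 of 8, 1 of 8, 2 of 9, 5 of 7 and 0 of 5 of these markers were at 0 in all of them. Fibroblast markers summed to 24.1 to 32.5 CPM with the label shAsns-1 and 19.2 to 23.4 CPM with shAsns-2, nearly all of it Pdgfra, and 1 of the 10 was at 0 in all 8 libraries. Leukocyte markers summed to 11.2 to 15 against 14.9 to 16.5 CPM, mostly Cd14. The part of these cell types in the results was not tested. In bulk RNA, fewer cells of a type and less RNA per cell cannot be told apart.

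Asns itself was high with the label shAsns-1 and low with shAsns-2. The libraries labelled shAsns-1 A to D held 185, 152, 185 and 159 CPM. Those labelled shAsns-2 held 48.3, 42.3, 30.4 and 26.2 CPM. In tumor cells with shRenilla the 4 values were 84.6, 84.6, 61.7 and 100 CPM. No value of a group reached into the next, and the control lay between the hairpins. The difference between the hairpins was 2.22 ± 0.17 on the log2 scale (SE; adjusted p = 1.84e-10, edgeR's quasi-likelihood test over all genes, as for every adjusted p here). Asns therefore ran against the label shAsns-1, and every direction is between labels, not between degrees of knockdown. The gene lies on chromosome 6 at 7675169 to 7693254, minus strand, in GENCODE M21. Hprt, whose loss gives resistance to 6TG, stood at 470 to 624 against 400 to 766 CPM and was not called (-0.20 ± 0.16, adjusted p = 0.391), although it was lower once GC content and length entered as offsets (-0.38, adjusted p = 0.004).

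Genes were called at an adjusted p under 0.05. Of 12625 genes tested 3424 were called (27.1%), 1528 higher with the label shAsns-1 (12.1%) and 1896 lower (15%). All 4 libraries of a label lay beyond all 4 of the other for 3748 genes (29.7%), of which 2878 were called. Called genes that changed at least 2-fold numbered 733 (5.81%), 261 higher and 472 lower. By at least 4-fold 54 genes were higher and 92 lower, and by at least 8-fold 7 were higher and 32 lower. The median called change was 0.61 on the log2 scale in size, while the median of all genes tested was -0.02. Lists below are read against these shares.

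**Figure D1:**
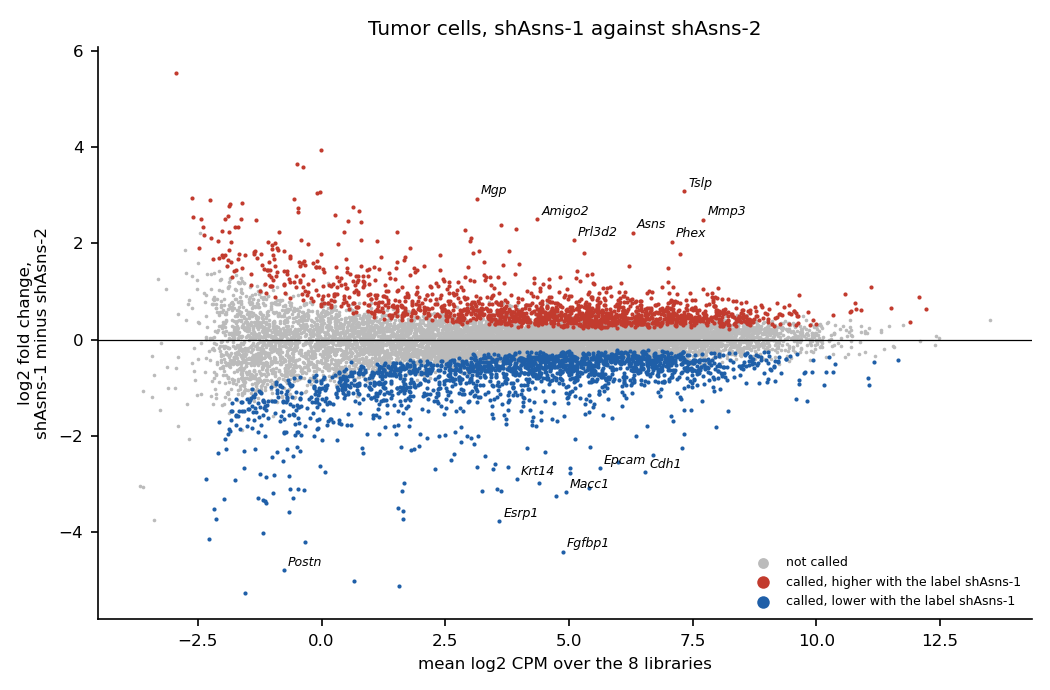
Log2 fold change of the label shAsns-1 against shAsns-2 (vertical axis) and mean log2 CPM over the 8 tumor libraries (horizontal axis) for the 12625 genes tested; red and blue points passed an adjusted p of 0.05. The 1528 genes called higher are mostly small changes, and among changes of at least 8-fold the blue points outnumber the red by 32 to 7.

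Among genes with a mean log2 CPM of at least 3, the largest rise with the label shAsns-1 was that of Tslp. Tslp, an epithelial cytokine that acts on dendritic cells and T helper cells, stood at 503, 342, 575 and 500 CPM against 71, 61.3, 36.9 and 57.4 CPM with shAsns-2. The groups were far apart, and the change was 8.51-fold (log2 3.09 ± 0.20, adjusted p = 1.34e-11). Mgp, a matrix protein that holds back calcification, stood at 24, 22.2, 31.3 and 20 against 3.35, 3.54, 2.15 and 3.9 CPM (log2 2.93 ± 0.29, adjusted p = 4.5e-08). Amigo2, a cell adhesion molecule, stood at 46, 53.4, 49.9 and 50.1 against 7.05, 9.05, 6.27 and 12.5 CPM (2.50 ± 0.23, adjusted p = 7.84e-09). In neither did the groups overlap. Mmp3, the matrix metalloproteinase stromelysin-1, stood at 564, 324, 715 and 434 against 104, 77, 85.2 and 96.4 CPM (2.49 ± 0.23, adjusted p = 6.28e-09). Its levels varied more than 2-fold among libraries labelled shAsns-1 and stayed apart from the others all the same. Angpt1, a ligand of the vessel receptor TIE2, stood at 22.2, 26, 38.3 and 27.9 against 4.9, 7.02, 4.64 and 5.06 CPM (2.38 ± 0.20, adjusted p = 2.02e-09).

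The other 7 genes rose by 1.83 to 2.30 on the log2 scale without overlap of the libraries. They were Trib2, a pseudokinase (29.4 to 37.1 against 5.62 to 8.36 CPM, log2 change 2.30), Asns, Sema6d, a semaphorin (14.6 to 19.7 against 3.11 to 5.26 CPM, 2.11), and Prl3d2, a prolactin-family hormone (42.5 to 117 against 15.7 to 19.5 CPM, 2.06). The others were Lbh, a transcription cofactor (15.7 to 17.1 against 2.99 to 4.6 CPM, 2.05), Phex, an endopeptidase of phosphate balance (248 to 298 against 51.8 to 83.5 CPM, 2.04), and Mmp1b, a collagenase relative (14.5 to 20.1 against 4.54 to 4.91 CPM, 1.83). Prl3d2 and Mmp1b have near copies in the mouse genome, so reads of their relatives may enter these 2 counts.

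The largest falls were deeper than the largest rises. Fgfbp1, a secreted carrier of fibroblast growth factors, stood at 5.76, 11.5, 6.26 and 3.36 CPM with the label shAsns-1 and at 125, 187, 137 and 115 CPM with shAsns-2, which is 21.2-fold lower (log2 -4.41 ± 0.26, adjusted p = 3.88e-12). Esrp1, a splicing regulator of epithelial isoforms, stood at 2.78, 6.74, 2.71 and 1.78 against 36.9, 58.9, 44.1 and 46.3 CPM (-3.76 ± 0.48, adjusted p = 1.75e-06). Both genes were well measured with shAsns-2, and were low but present in every library labelled shAsns-1. Mpzl2, an epithelial adhesion molecule, stood at 6.8 to 11.2 against 75.8 to 94 CPM (-3.26 ± 0.20, adjusted p = 4.02e-12). Macc1, a regulator of the receptor tyrosine kinase MET, stood at 9.04, 12, 11 and 9.13 against 81.7, 113, 79.3 and 95.3 CPM (-3.16 ± 0.17, adjusted p = 8.58e-13). Spread within each label was small beside the gap for Macc1. Moxd1, a monooxygenase-like protein, stood at 3.3 to 5.16 against 32.5 to 39.5 CPM (-3.15 ± 0.20). Pdgfb, a platelet-derived growth factor subunit, stood at 2.48, 5.74, 2.2 and 2.75 against 22, 29, 30.3 and 33.2 CPM (-3.14 ± 0.23, adjusted p = 8.88e-11). The groups did not overlap for either, although shAsns-1 B stood above its neighbours in Pdgfb.

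The remaining genes in that group of 12 were Lama3, Il24, Serpinb5, Krt14, Krt7 and Cdh1. Lama3, a chain of the basement membrane laminin-332, stood at 2.58 to 5.16 against 30.2 to 38.5 CPM (log2 -3.10 ± 0.25). Il24, a cytokine of the IL-10 family, stood at 10.9 to 18.9 against 114 to 147 CPM (-3.08 ± 0.20). Serpinb5, the epithelial serpin maspin, stood at 5.08 to 9.95 against 38.4 to 87.9 CPM (-2.99 ± 0.27). Each of these had its highest library with shAsns-1 far under its lowest with shAsns-2. Krt14, a basal keratin, stood at 4.99 to 6.48 against 32.8 to 54.4 CPM (-2.90 ± 0.18). Krt7, a keratin of simple epithelia, stood at 8.41 to 19.5 against 73.7 to 95.3 CPM (-2.78 ± 0.24). Cdh1, which encodes E-cadherin, stood at 29.9, 47.6, 36.1 and 32 against 189, 267, 223 and 298 CPM (-2.75 ± 0.19, adjusted p = 2.7e-11). Cdh1 thus held a clear level with both labels and differed 6.72-fold.

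**Figure D2:**
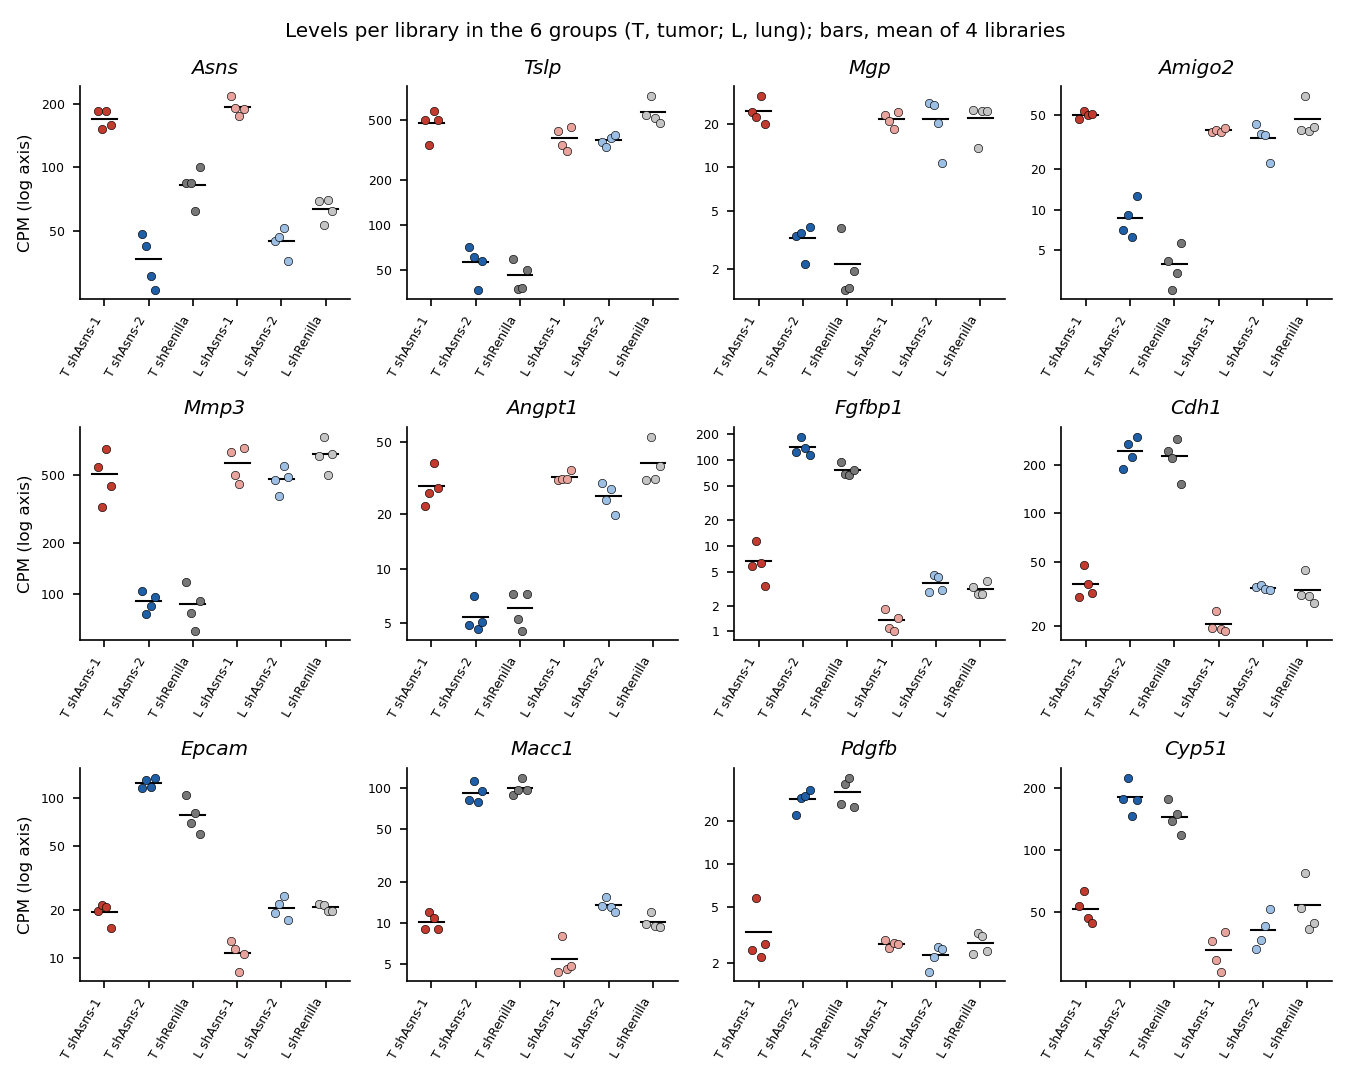
CPM (log axes) of 12 genes in each of the 24 libraries, by site (T tumor, L lung) and hairpin; points are libraries and bars the means of 4. In every panel the 4 tumor libraries labelled shAsns-1 (red) lie apart from the 4 labelled shAsns-2 (dark blue), for Fgfbp1 at 3.36 to 11.5 against 115 to 187 CPM.

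The other groups of the series entered the low-count filter and the estimate of spread; with only the compared groups 3699 genes were called, 3144 of them among the 3424. For 3256 of the 3424 called genes (95.1%) the mean of tumor shRenilla lay nearer to shAsns-2 than to shAsns-1 on the log2 scale. The lung groups lay the other way: the lung shRenilla mean was nearer to the tumor libraries labelled shAsns-1 for 63.9% of called genes, lung shAsns-1 for 70.4% and lung shAsns-2 for 73.4%. For the 24 genes named by size, all 3 lung means were nearer to tumor shAsns-1 in 21, the exceptions being Asns, Lbh and Prl3d2. Tslp stood at 382, 366 and 567 CPM on average in lung shAsns-1, shAsns-2 and shRenilla, beside 480 and 56.7 CPM in tumor shAsns-1 and shAsns-2 and 46 CPM in tumor shRenilla. Cdh1 stood at 20.3, 34.3 and 33.3 CPM in the lung groups and at 226 CPM in tumor shRenilla. The tumor libraries labelled shAsns-1 were thus the group that stood apart from the other tumor libraries in these genes. The hairpin and any other difference between these groups of libraries cannot be told apart.

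Epithelial genes fell as a group. Over the 4 epithelial lists 46 of 67 genes tested were lower (68.7%, against 15% of all genes), 2 were higher, and the median log2 change was -1.25. Of 15 adherens junction and desmosome genes 11 were lower and 1 higher (median -0.84). Beside Cdh1, the desmosomal cadherin Dsg2 stood at 12 to 15.6 against 73.8 to 97.9 CPM (-2.67 ± 0.16, adjusted p = 4.02e-12), and the desmosomal linker Dsp at 27.4 to 29.6 against 62.7 to 81.3 CPM (-1.34 ± 0.10, adjusted p = 4.31e-10). The exception was Ppl, the cornified envelope linker periplakin, at 26 to 33.4 against 17.1 to 24.2 CPM (0.52 ± 0.17, adjusted p = 0.0271), a call that ended without shAsns-1 C, shAsns-2 A or shAsns-2 C (adjusted p = 0.0695 to 0.0772).

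Of 29 tight junction and apical genes 21 were lower and 0 higher (median -1.40), and all 29 had a log2 fold change below 0. Epcam, an epithelial adhesion molecule that stabilises claudins, stood at 19.9, 21.7, 21 and 15.5 against 116, 130, 118 and 134 CPM (-2.67 ± 0.15, adjusted p = 3.88e-12). Ocln, the tight junction protein occludin, stood at 3.66, 4.35, 5.35 and 4.03 against 25.5, 33.3, 24.3 and 28.4 CPM (-2.68 ± 0.18, adjusted p = 3.1e-11). Both were even within a label. Of 7 keratins tested 5 were lower and 0 higher (median -1.77). Krt8 (-0.08 ± 0.15, adjusted p = 0.747) and Krt18 (-0.17 ± 0.19, adjusted p = 0.543) were the 2 that were not called, and their libraries overlapped.

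Of 16 regulators of epithelial splicing and transcription 9 were lower and 1 higher (median -0.92). Ovol1, a zinc finger factor of epithelial differentiation, stood at 0.25 to 0.564 against 2.03 to 2.91 CPM (-2.76 ± 0.28, adjusted p = 5.76e-08). Grhl2, a grainyhead factor that maintains junction genes, stood at 7.95 to 9.74 against 17.3 to 25.8 CPM (-1.29 ± 0.16, adjusted p = 1.01e-06). Klf4 was the member that was higher, at 14.5 to 18 against 8.49 to 14.1 CPM (0.54 ± 0.17, adjusted p = 0.0187), and its call ended without shAsns-1 B or shAsns-2 C (adjusted p = 0.0503 and 0.0632). RefSeq promoter windows were at hand for 24 of the 46 genes called lower (52.2%), too few for a share of E-boxes over the group.

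**Figure D3:**
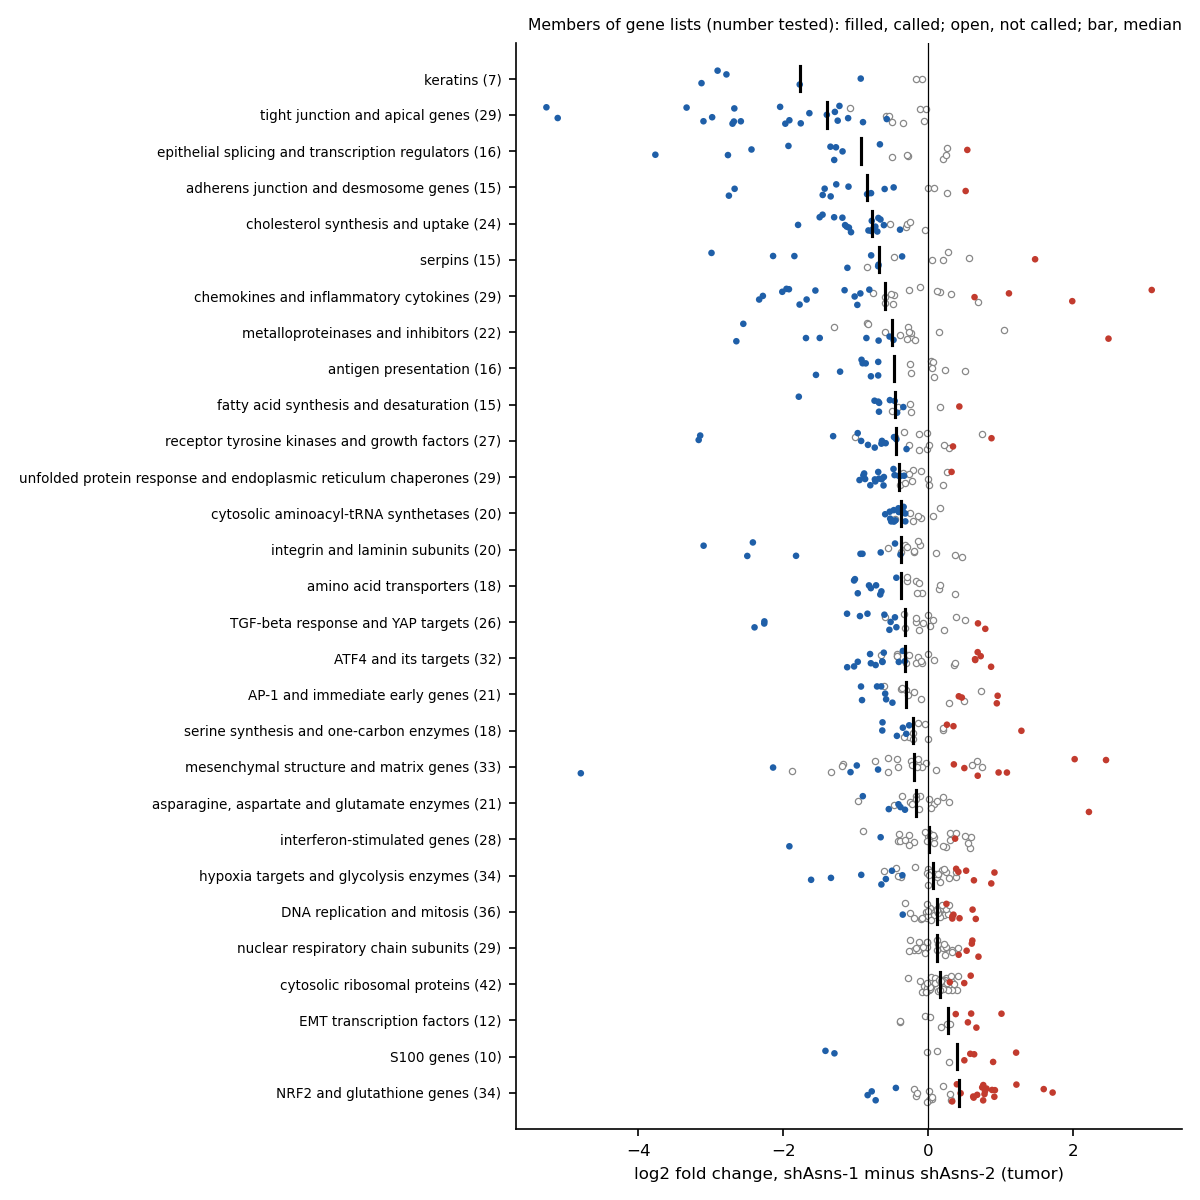
Log2 fold change of the members of 29 gene lists, with the number tested in brackets; filled points were called, open points were not, and bars are medians. Keratins (median -1.77) and tight junction genes (median -1.40) stand at the top, NRF2 and glutathione genes (median 0.42) at the bottom.

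The mesenchymal lists were mixed. Of 12 transcription factors of epithelial-mesenchymal transition 5 were higher and 0 lower (median 0.28). Etv5, an ETS factor downstream of growth factor signals, stood at 22.7 to 28.2 against 10 to 14.1 CPM (1.01 ± 0.14, adjusted p = 4.2e-06). Zeb2 stood at 91.1, 103, 93.7 and 113 against 74.1, 67.9, 56.8 and 67.2 CPM (0.60 ± 0.15, adjusted p = 0.00351). Twist1 was called higher (0.67 ± 0.17, adjusted p = 0.00373) at 35.3 to 46.6 against 21.3 to 38.4 CPM, with shAsns-2 D reaching into the other group. Zeb1 and Snai1 were not called: Zeb1 stood at 0.861 to 1.55 against 0.717 to 1.37 CPM (-0.05 ± 0.25, adjusted p = 0.909) and Snai1 at 1.32 to 1.81 against 1.51 to 3.14 CPM (-0.38 ± 0.28, adjusted p = 0.333). Both are low, so small differences in them could not be measured well.

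Of 33 mesenchymal structure and matrix genes 7 were higher and 5 lower (median -0.19), with 8 lower when only the compared groups were fitted. Among all genes 12.1% were higher and 15% lower, so in the main fit the list was lower about as often as genes at large. Vim, the mesenchymal filament vimentin, was high throughout, at 3794 to 4728 against 2968 to 4156 CPM (0.36 ± 0.12, adjusted p = 0.0253), with overlap, and its call ended without any 1 of 5 libraries (shAsns-1 B or D, shAsns-2 A, B or C; adjusted p = 0.053 to 0.0774). Thbs2, a matrix glycoprotein, stood at 2.31 to 4.11 against 0.555 to 0.607 CPM (2.46 ± 0.29, adjusted p = 5.02e-07), and the matrix cytokine gene Spp1 at 4233, 2387, 3912 and 2629 against 1609, 1789, 1295 and 1490 CPM (1.09 ± 0.21, adjusted p = 0.000316). Other members ran downward without overlap. Fn1, for fibronectin, stood at 644 to 706 against 978 to 1340 CPM (-0.69 ± 0.19, adjusted p = 0.00746). Postn, for periostin, stood at 0.0385 to 0.114 against 1.42 to 2.84 CPM (-4.79 ± 0.53, adjusted p = 2.31e-07). Postn is also on the fibroblast marker list. Without Pdgfra that list summed to 1.01 to 2.39 CPM with the label shAsns-1 and 2.48 to 4.3 CPM with shAsns-2, and without Pdgfra and Postn to 0.915 to 2.3 and 0.866 to 1.79 CPM.

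Genes for the attachment to and cutting of matrix were more often called lower than higher. Of 20 integrin and laminin subunits 9 were lower and 0 higher (median -0.37). Itgb6, the epithelial integrin chain that activates latent TGF-beta, stood at 2.22 to 2.93 against 11.4 to 18 CPM (-2.49 ± 0.21, adjusted p = 1.55e-09). Its groups did not overlap. Of 22 listed metalloproteinases and inhibitors 8 were lower, and Mmp3 was the 1 listed member that was higher (median -0.50). Mmp1b, named above among the largest rises, was higher too but is not on this list. Adam12, a membrane-bound sheddase, stood at 4.51 to 6.67 against 32.3 to 37.1 CPM (-2.65 ± 0.17, adjusted p = 1.42e-11), and Adamts1, a secreted protease, at 22.5 to 34.7 against 124 to 187 CPM (-2.55 ± 0.21, adjusted p = 1.22e-09). Of 15 serpins 8 were lower and 1 higher (median -0.68; 2 higher without shAsns-2 C). The higher one was Serpine2, a secreted protease inhibitor, at 156 to 303 against 62.2 to 107 CPM (1.48 ± 0.25, adjusted p = 7.38e-05).

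Signalling genes were more often lower than higher. Of 26 TGF-beta response genes and YAP targets 11 were lower and 2 higher (median -0.32). Ctgf and Cyr61, matricellular targets of YAP, stood at 44 to 48.4 against 196 to 324 CPM (-2.39 ± 0.27, adjusted p = 2.91e-07) and at 65.6 to 85 against 265 to 470 CPM (-2.26 ± 0.30, adjusted p = 3.17e-06). Inhba, the activin A subunit, stood at 7.13 to 8.93 against 31.6 to 50.3 CPM (-2.26 ± 0.28, adjusted p = 1.37e-06). Wwtr1, the gene of the YAP relative TAZ, ran against its listed targets, at 363 to 447 against 218 to 265 CPM (0.79 ± 0.15, adjusted p = 0.000389). Of 27 receptor tyrosine kinases and growth factors 13 were lower and 2 higher (median -0.44), and the 2 became 1 without any 1 of 5 libraries (shAsns-1 B or D, shAsns-2 A, B or C). Vegfc, a lymphatic growth factor, stood at 14.9 to 18.6 against 36.3 to 49.4 CPM (-1.31 ± 0.19, adjusted p = 9.11e-06). Tgfa, a ligand of the EGF receptor, was higher, at 50.9 to 63.6 against 29.7 to 34.7 CPM (0.88 ± 0.11, adjusted p = 1.21e-06). Of 21 AP-1 and immediate early genes 7 were lower and 4 higher (median -0.30). Myc stood at 149 to 202 against 256 to 373 CPM (-0.70 ± 0.14, adjusted p = 0.000604), whereas Dusp6, a phosphatase induced by and acting on ERK, stood at 306 to 369 against 141 to 202 CPM (0.96 ± 0.13, adjusted p = 2.44e-06).

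Of 29 chemokines and inflammatory cytokines 13 were lower and 4 higher (median -0.60). Cxcl16, a membrane-bound chemokine, stood at 9.99, 11.9, 9.92 and 9.36 against 43.6, 45.6, 59.9 and 57 CPM (-2.33 ± 0.14, adjusted p = 4.02e-12). Cxcl1, which attracts neutrophils, stood at 97.9, 79, 83.1 and 67.9 against 313, 313, 275 and 368 CPM (-1.95 ± 0.14, adjusted p = 1.11e-10). Il23a, a subunit of interleukin-23, stood at 10.4 to 14.3 against 35.8 to 43.7 CPM (-1.68 ± 0.14, adjusted p = 1.07e-09). In all 3 the groups were far apart, and Tslp was the strongest of the 4 members that were higher. Of 16 antigen presentation genes 8 were lower and 0 higher (median -0.47). H2-K1, a class I heavy chain, stood at 124 to 143 against 214 to 321 CPM (-0.90 ± 0.15, adjusted p = 9.9e-05), with near copies among other class I genes, and its loading factor Tapbp at 34.1 to 41.3 against 56.7 to 82.6 CPM (-0.79 ± 0.15, adjusted p = 0.000447). Interferon-stimulated genes showed 1 higher and 2 lower of 28, with a median of 0.02 that ran from -0.12 to 0.11 over the other ways of scaling and fitting. Without shAsns-2 A 4 were lower, and without shAsns-2 C 0 were higher. The 2 lower were Bst2, a virus-tethering protein (0.193 to 0.395 against 0.85 to 1.62 CPM, -1.91 ± 0.42, adjusted p = 0.00123), and the interferon regulatory factor Irf1 (25 to 31.1 against 39.7 to 44.5 CPM, -0.65 ± 0.13, adjusted p = 0.000393).

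In metabolism, sterol synthesis was the most uniform group. Of 24 genes of cholesterol synthesis and uptake 19 were lower, 0 were higher (median -0.77), and all 24 had a log2 fold change below 0. Cyp51, which demethylates lanosterol, stood at 53.6, 63.2, 47.1 and 44.3 against 176, 224, 146 and 175 CPM (-1.79 ± 0.19, adjusted p = 8.71e-08). Sqle, squalene epoxidase, stood at 101, 106, 94.3 and 86.2 against 254, 301, 224 and 281 CPM (-1.45 ± 0.15, adjusted p = 6.57e-08). Neither overlapped. Srebf2, the transcription factor that turns these genes on, stood at 6.65 to 9.98 against 15 to 23.5 CPM (-1.12 ± 0.16, adjusted p = 7.46e-06). Of 15 genes of fatty acid synthesis and desaturation 9 were lower and 1 higher (median -0.46), but the 9 became 4 without shAsns-1 D and 5 without shAsns-1 C or shAsns-2 B. Elovl6, a fatty acid elongase, stood at 114 to 140 against 184 to 228 CPM (-0.67 ± 0.09, adjusted p = 4.23e-06), and Fads2, a desaturase, at 0.62 to 0.801 against 1.97 to 2.83 CPM (-1.78 ± 0.29, adjusted p = 5.26e-05).

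Most genes around asparagine synthetase were not called. Of 21 genes of asparagine, aspartate and glutamate metabolism, Asns was the 1 called higher, 5 were lower and 15 were not called (median -0.17). Over all genes 27.1% were called, so the list was called about as often as genes at large. The 5 became 3 without shAsns-1 A or shAsns-1 D, and 2 genes were called higher without shAsns-1 A, shAsns-2 A or shAsns-2 B. Gpt2, the mitochondrial alanine transaminase, stood at 8.86 to 11.2 against 14.4 to 22.9 CPM (-0.90 ± 0.15, adjusted p = 7.39e-05). Got1, the cytosolic aspartate transaminase, stood at 65.9 to 68.8 against 80.8 to 96 CPM (-0.38 ± 0.10, adjusted p = 0.00468), and Nars, the asparaginyl-tRNA synthetase, at 346 to 379 against 392 to 549 CPM (-0.41 ± 0.12, adjusted p = 0.01). Of 32 genes of ATF4 and its targets, counted without Asns, 12 were lower and 5 higher (median -0.31). Atf4 mRNA stood at 144, 167, 141 and 156 against 163, 165, 188 and 241 CPM (-0.32 ± 0.12, adjusted p = 0.0464), with overlap, and its call ended under several settings, among them leaving out shAsns-2 D (-0.18, adjusted p = 0.258). Trib3, a feedback inhibitor of ATF4, was not called (3.43 to 6.01 against 3.59 to 8.25 CPM, -0.43 ± 0.20, adjusted p = 0.115). It was called lower without shAsns-1 B (-0.58, adjusted p = 0.0467) or without shAsns-2 A (-0.55, adjusted p = 0.045). Atf3, a stress-induced factor, stood at 4.3 to 4.82 against 9.08 to 10.6 CPM (-1.11 ± 0.12, adjusted p = 1.56e-07), and Mthfd2, a mitochondrial folate enzyme, at 106 to 119 against 153 to 188 CPM (-0.63 ± 0.09, adjusted p = 9.54e-06). Cebpb, a partner of ATF4, was higher, at 38.6 to 44.8 against 20.8 to 37.3 CPM (0.69 ± 0.14, adjusted p = 0.000716; 0.35, adjusted p = 0.0642 with GC content and length offsets).

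Of 20 cytosolic tRNA synthetases 13 were lower and 0 higher, by small amounts (median -0.38), and the 13 became 8 without shAsns-2 A or shAsns-2 C. Tars, for threonyl-tRNA, stood at 202, 190, 195 and 193 against 290, 279, 279 and 271 CPM (-0.52 ± 0.08, adjusted p = 3.11e-05), and Lars, for leucyl-tRNA, at 79.9 to 92.2 against 105 to 132 CPM (-0.51 ± 0.09, adjusted p = 0.000108). Of 18 amino acid transporters 9 were lower and 0 higher (median -0.37). Slc3a2, the heavy chain shared by several exchangers, stood at 73.3 to 97 against 142 to 180 CPM (-1.02 ± 0.15, adjusted p = 1.08e-05). Slc1a5, a glutamine and asparagine carrier, stood at 43.8 to 50.4 against 76 to 125 CPM (-0.97 ± 0.17, adjusted p = 0.000161). Among 18 serine synthesis and one-carbon enzymes 6 were lower and 3 higher (median -0.21). The 6 became 3 without shAsns-1 B or shAsns-2 A, and the 3 became 1 without shAsns-1 A. Psph, the last enzyme of serine synthesis, stood at 95.2 to 110 against 113 to 142 CPM (-0.35 ± 0.10, adjusted p = 0.015), a call that ended without shAsns-2 A (adjusted p = 0.0809), with no filter (0.0533) and with GC content and length offsets (0.0919). Of 29 genes of the unfolded protein response 17 were lower and 1 higher (median -0.40), the latter not without shAsns-1 A, shAsns-2 A or shAsns-2 C. Herpud1, a component of endoplasmic reticulum degradation, stood at 23.2 to 26.4 against 39.9 to 44.1 CPM (-0.73 ± 0.11, adjusted p = 1.61e-05), and the co-chaperone Dnajb11 at 75.7 to 97.5 against 144 to 177 CPM (-0.89 ± 0.15, adjusted p = 8.81e-05).

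NRF2 and glutathione genes were the clearest group that was higher with the label shAsns-1. Of 34 tested 19 were higher (against 12.1% of all genes) and 4 lower (median 0.42), and the 4 became 2 without any 1 of 6 libraries (shAsns-1 A, B or D, shAsns-2 A, C or D). Nfe2l2, which encodes NRF2, stood at 197, 182, 212 and 202 against 122, 120, 121 and 105 CPM (0.76 ± 0.12, adjusted p = 3.08e-05). Mgst1, a microsomal glutathione transferase, stood at 48 to 72.5 against 20.1 to 28.7 CPM (1.22 ± 0.18, adjusted p = 1.48e-05), and Aldh3a1, an aldehyde dehydrogenase, at 1.11 to 1.72 against 0.359 to 0.557 CPM (1.60 ± 0.26, adjusted p = 5.62e-05). Abcc4, an efflux pump, was the other way, at 22.7 to 26.7 against 37.9 to 46.2 CPM (-0.72 ± 0.14, adjusted p = 0.000321). Hypoxia and glycolysis genes were mixed, with 6 higher and 7 lower of 34 (median 0.07), beside 12.1% and 15% of all genes. With limma 10 were higher. Adm, the vasodilator adrenomedullin, stood at 8.27 to 12.6 against 27.3 to 47.7 CPM (-1.61 ± 0.22, adjusted p = 4.47e-06), and Egln3, an oxygen sensor, at 42.5 to 49.9 against 24.6 to 37.4 CPM (0.63 ± 0.13, adjusted p = 0.000535).

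The larger housekeeping groups moved little. Of 36 DNA replication and mitosis genes 7 were higher and 1 lower (median 0.13). The 7 became 4 without any 1 of 5 libraries (shAsns-1 C or D, shAsns-2 A, C or D) and 12 with GC content and length offsets. The mitotic cyclin gene Ccnb2 was higher, at 235 to 268 against 136 to 184 CPM (0.62 ± 0.14, adjusted p = 0.00187), and the proliferation marker Mki67 was lower, at 542 to 672 against 747 to 866 CPM (-0.35 ± 0.10, adjusted p = 0.00942). Of 29 nuclear-encoded respiratory chain subunits 5 were higher and 0 lower (median 0.13), a count that ranged from 3 to 12 higher and from 0 to 4 lower over the other settings, with 3 higher without shAsns-1 A or shAsns-2 D. Of 42 cytosolic ribosomal proteins 3 were higher and 0 lower (median 0.17), and the 3 became 1 without shAsns-1 A or shAsns-2 D and 10 with limma. All 4 libraries labelled shAsns-1 lay above the others for 13 of the 42, against 13.9% of all genes. S100 calcium-binding proteins had 5 higher and 2 lower of 10 (median 0.40), and the 2 became 1 on leaving out any library but shAsns-1 B. S100a1 stood at 87.9 to 104 against 48 to 55.8 CPM (0.90 ± 0.14, adjusted p = 3.83e-05).

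The same labels in lung-derived cells gave a smaller contrast. Of 12625 genes 33 were called between lung shAsns-1 and lung shAsns-2 (0.261%), and the SD of the log2 change over genes was 0.28, against 0.57 in tumor cells. Over genes, which are not independent replicates, the changes at the sites had a Pearson r of 0.157, and 49.8% of the genes called in tumor had the same sign in lung, near the 49.1% of all genes. The lung count moved with single libraries, down to 6 without lung shAsns-1 D and up to 84 without lung shAsns-2 D. It depended more on the method: limma with library weights called 1924 genes in lung, against 4903 in tumor cells. In the test of the difference itself, tumor change minus lung change, 1468 genes were called (11.6%), of which 598 were above 0 and 870 below. With GC content and length offsets that split became 1240 and 1010, and with limma and library weights 2318 and 2714. Of the 3424 genes called in tumor, 1413 (41.3%) were also called in this difference.

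Asns was called at both sites: lung libraries labelled shAsns-1 averaged 194 ± 18.2 CPM and lung shAsns-2 44.6 ± 6.51 CPM (n = 4 each), and the difference between sites was 0.10 (adjusted p = 0.81). Of the 33 genes called in lung (63.6% of them called in tumor too), 21 were called in tumor cells, which is 0.613% of the tumor genes, and 19 of those had the same direction. Of these 19, 11 were not called in the difference between sites, and those reported here were chosen after their values were seen. They include Asns, Bmper, Hey1 and Prickle2, which were higher, and Ano1, Cldn9, Gpt2, Pck2, Sec11c and Slc25a40, which were lower. Pck2, a mitochondrial enzyme induced through ATF4, stood at 6.22 ± 0.62 against 10.6 ± 2.48 CPM in tumor and 6.46 ± 0.40 against 11.5 ± 1.37 CPM in lung, with log2 changes of -0.80 and -0.83. Sec11c, a signal peptidase subunit, changed by -0.84 and -0.68, and Gpt2 by -0.90 and -0.68. Bmper, an extracellular BMP regulator, stood at 0.974 against 0.263 CPM in tumor and 1.88 against 0.731 CPM in lung. Prickle2 and Hey1 averaged under 0.5 CPM in tumor cells, and the tumor call of Hey1 ended without shAsns-1 D or shAsns-2 B (adjusted p = 0.0532 and 0.0824) and that of Bmper with thinned counts (0.0785). In lung, 3 of the 33 calls (Asns, Dsg2 and Macc1) held in every alternative but the 2-fold minimum, which was not used for single genes. Lung calls held in 6 of 15 alternatives for Hey1 and Prickle2, and in 9, 10 and 12 of 16 for Gpt2, Sec11c and Pck2. Those of Bmper and Cldn9 held in 12 of 16, of Slc25a40 in 11 and of Ano1 in 15. A miss in the test of the difference does not show that the sites act alike.

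The other 8 shared genes went the same way at both sites but further in tumor cells, all of them lower: Dsg2, Epcam, Fgfbp1, Krt7, Macc1, Marveld2, Ocln and Serpinb5. Epcam changed by -2.67 in tumor and -0.94 in lung (difference -1.73, adjusted p = 5.05e-06), and the tight junction gene Marveld2 by -1.64 and -0.66 (difference -0.97, adjusted p = 0.000921). Atf3 and Icam1, an adhesion receptor for leukocytes, were called in opposite directions. Atf3 changed by -1.11 in tumor and 0.55 in lung (difference -1.66, adjusted p = 3.09e-07). Icam1 stood at 5.94 against 13.6 CPM in tumor and at 16.5 against 9.2 CPM in lung (difference -2.03, adjusted p = 1.68e-05). Their lung calls were the less stable side: that of Atf3 held in 7 of 16 alternatives (adjusted p up to 0.331) and that of Icam1 in 8 of 16 (up to 0.372). Among the 8 genes lower at both sites, the lung calls of Dsg2 and Macc1 held in all 16, while those of Fgfbp1 and Krt7 held in 8 and that of Marveld2 in 9. In the difference between sites, 6.89% of all genes were called below 0 and 4.74% above. Over the 4 epithelial lists 34 of 67 genes were called below 0 and 1 above, and of 24 cholesterol genes 12 were called below and 0 above. Of 29 chemokines and cytokines 15 were called below 0 and 2 above, and of 34 NRF2 and glutathione genes 3 were called below and 10 above.

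**Figure D4:**
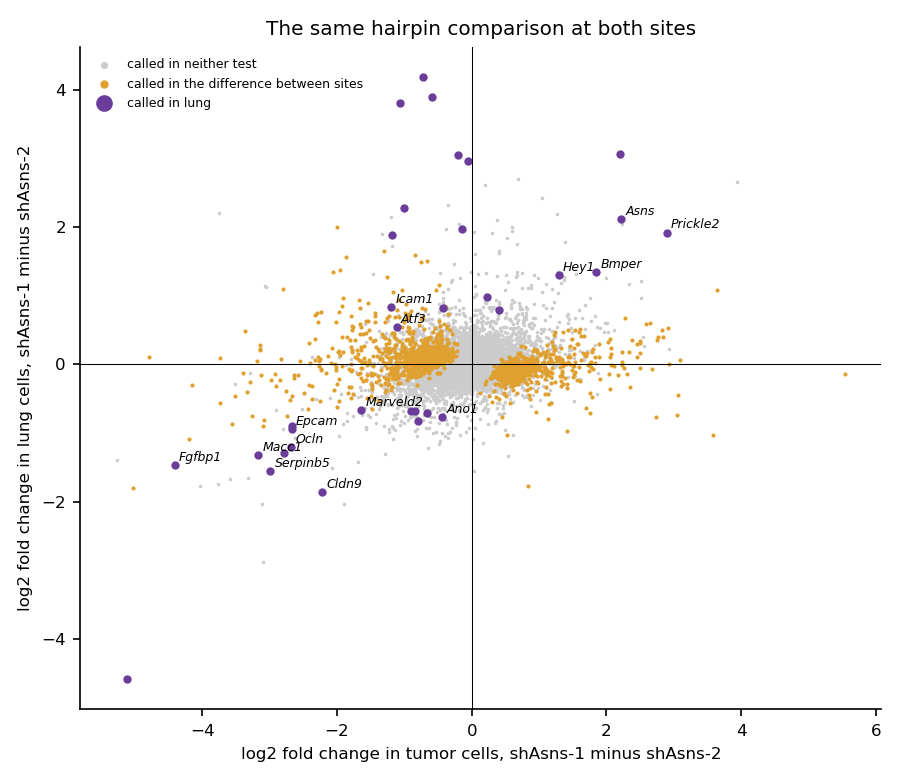
Log2 fold change between the labels shAsns-1 and shAsns-2 in tumor cells (horizontal axis) and in lung cells (vertical axis) for the 12625 genes tested; purple marks the 33 genes called in lung, orange genes called in the difference between sites, with some shared genes named. Asns lies near the diagonal (2.22 and 2.12), while most orange points stretch along the horizontal axis.

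Called genes were not spread evenly over the chromosomes, a tabulation that was chosen after values were seen and carries no test. Of 996 genes tested on chromosome 2, 210 were higher with the label shAsns-1 (21.1%) and 102 lower (10.2%). On chromosome 15 the balance was the other way, with 37 of 490 higher (7.55%) and 103 lower (21%). Chromosomes 4 (126 and 91), 6 (106 and 70) and 9 (120 and 84) also held more higher than lower genes, and each other chromosome held more lower ones. The median log2 change was 0.10 on chromosome 2 and -0.13 on chromosome 15, and 0.03 and 0.01 on the same chromosomes in lung cells. With GC content and length offsets the counts were 306 higher and 103 lower on chromosome 2, and 60 and 117 on chromosome 15.

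**Figure D5:**
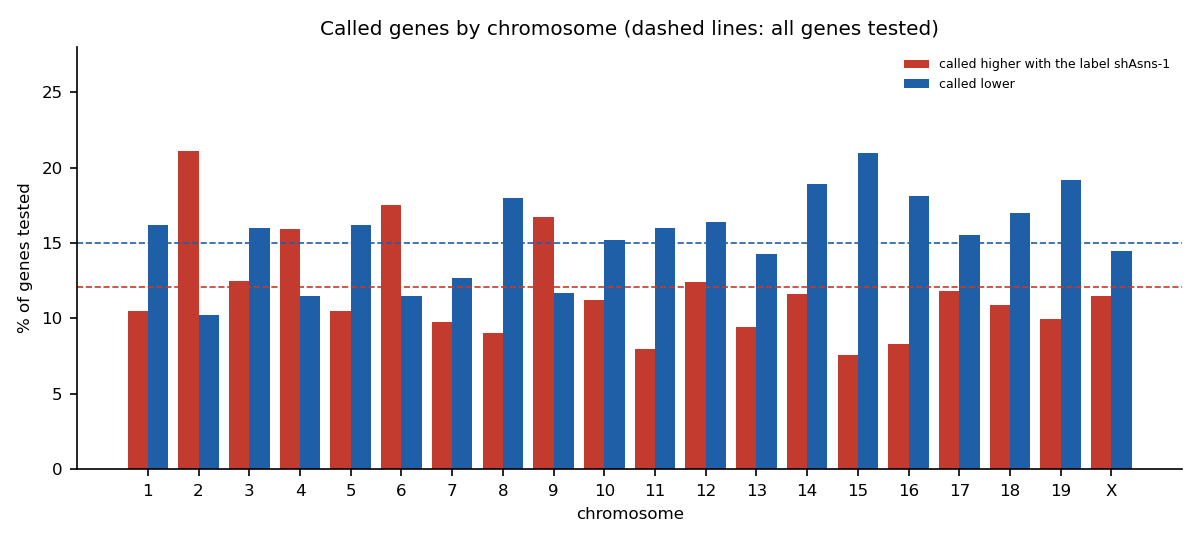
Share of the genes tested on each chromosome that were called higher (red) or lower (blue) with the label shAsns-1 in tumor cells; dashed lines are the shares over all genes (12.1% and 15%). Chromosome 2 has the highest red bar (21.1%) and chromosome 15 the highest blue bar (21%).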

How the data were processed

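The authors deposited whole-number counts per gene symbol for 23478 symbols, aligned and counted with Bowtie2 and HTSeq against mm10, per the submitters' processing notes (versions, annotation, strand setting and filters are not given in the sources used here). Per the labels, RNA came from a Trizol preparation and entered the Nugen Ovation RNAseq V2 kit. Counts were used as deposited. Without strand, reads of overlapping or antisense genes cannot be told apart.

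The test was edgeR's robust quasi-likelihood fit (version 4.0.16, R 4.3.3), in which each of the 6 groups in the 24 libraries had its own mean, after TMM scaling. The filterByExpr filter kept 12625 genes, and Benjamini-Hochberg adjustment ran over all of them. The SE is the absolute log2 change divided by the root of the F statistic. CPM are the authors' counts per scaled library size, in the usual CPM unit, and log2 CPM for scaling plots used a prior count of 2. The biological coefficient of variation was 14.9%. For this comparison, counts were also simulated with 67, 67 and 66 genes changed 1.5-, 2- and 4-fold. The test recovered 55.2, 83.6 and 95.5% of them, with 5 false calls among 12425 unchanged genes. These counts were drawn gene by gene from the fitted model, and far fewer genes were changed than were called in the data. The rates may therefore not hold for the data.

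Named were Asns and Hprt, the 12 largest rises and falls among called genes with a mean log2 CPM of at least 3, no overlap and no predicted-gene symbol, leading called members of lists, and 12 fixed genes (Cdh1, Epcam, Esrp1, Vim, Twist1, Zeb1, Zeb2, Snai1, Fn1, Atf4, Trib3 and Srebf2). The comparison, lists and rules were chosen with earlier results of these data known. Lists are described by counts and medians, with no set test. Krt8, Krt18 and the genes named from lung cells fall outside the rule for size and lists. Some list members are not reported here.

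Other settings tried were a full DESeq2 1.42.0 fit, edgeR with DESeq2 size factors, limma 3.58.1 weighting the libraries, a fit on unfiltered genes, a fit on the compared groups alone, counts thinned to 8480908 per library, a replicate block by letter, offsets for GC content and length (splines with 5 df), a 2-fold minimum, and 1 library left out at a time. Positions come from GENCODE M21 (GRCm38) for 23080 symbols, 1171 of them through RefSeq synonyms, and promoter windows from RefSeq on GRCm38.p6. The depth of each library bounds precision at low levels. Figures were drawn with matplotlib 3.10.9.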

Additional observations from a re-analysis of the deposited data

Results flagged for a closer look

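The change between the hairpin labels differed between tumor and lung cells, by edgeR's test of the difference itself, for 1468 genes. Of the 103 genes named with values, 74 were among them, against 11.6% of all genes tested. Most of the 103 were named for their tumor change, which is itself a part of this difference, so their share is high by selection. Below are the differences of the 74 on the log2 scale, tumor change minus lung change. For genes that were lower with the label shAsns-1 in tumor cells, the largest were Postn -4.90, Pdgfb -3.43, Moxd1 -3.37, Fgfbp1 -2.94, Bst2 -2.88, Adamts1 -2.60, Krt14 -2.58, Mpzl2 -2.50, Adam12 -2.49, Ctgf -2.42, Cxcl16 -2.39, Ovol1 -2.37, Cyr61 -2.34, Inhba -2.31, Il24 -2.27, Lama3 -2.20, Cxcl1 -2.09, Itgb6 -2.08, Adm -2.05, Icam1 -2.03. Intermediate differences were Cdh1 -1.99, Macc1 -1.85, Dsg2 -1.78, Il23a -1.74, Epcam -1.73, Vegfc -1.71, Fads2 -1.71, Atf3 -1.66, Krt7 -1.50, Ocln -1.47, Cyp51 -1.46, Serpinb5 -1.44, Sqle -1.32. The smaller ones were Srebf2 -1.15, H2-K1 -1.08, Tapbp -1.05, Dsp -1.04, Dnajb11 -1.01, Marveld2 -0.97, Myc -0.92, Slc1a5 -0.92, Herpud1 -0.91, Slc3a2 -0.90, Grhl2 -0.90, Irf1 -0.89, Fn1 -0.83, Abcc4 -0.77, Elovl6 -0.66, Mthfd2 -0.43, Tars -0.40. Genes that were higher in tumor cells gave Tslp 3.03, Mgp 2.92, Trib2 2.45, Thbs2 2.34, Amigo2 2.33, Mmp3 2.18, Phex 2.17, Sema6d 2.13, Prl3d2 2.07, Angpt1 2.03, Lbh 1.94, Mmp1b 1.72, Aldh3a1 1.64, Spp1 1.17, Etv5 1.10, Tgfa 0.96, Dusp6 0.91, S100a1 0.90, Wwtr1 0.88, Mgst1 0.80, Ppl 0.77, Nfe2l2 0.73, Ccnb2 0.64, Egln3 0.55. Adjusted p-values of these genes reached 0.0424 at the most. By their labels the lung and tumor libraries come from different cells, which was not tested. The count of 1468 depends on single lung libraries, as given with the processing alternatives.

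In 9 of 206 sets of 4 libraries (a gene and a label), 1 library lay far from its 3 neighbours, a rate that chance gives in about 1 of 20 sets. Library shAsns-2 D was the far one in 5 of them: it was high in Twist1 (38.4 CPM), Snai1 (3.14 CPM), H2-K1 (321 CPM) and Ano1 (28.7 CPM) and low in Nfe2l2 (105 CPM). Library shAsns-2 C was high in Il24 (147 CPM). Library shAsns-1 B was high in Pdgfb (5.74 CPM) and Dsg2 (15.6 CPM), and shAsns-1 C was low in Cebpb (38.6 CPM). Of these genes Snai1 was not called, and the others kept their call without the far library.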

How the results depend on the processing

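The count of 3424 called genes stayed within 1.5-fold under every alternative but the 2-fold minimum, which called 173, 45 higher and 128 lower. That setting tests whether a change exceeds 2-fold. It is stricter than counting called genes with an estimated change of at least 2-fold, which were 733. Without each of the 8 libraries in turn the main count ran from 2664 to 3266. Correlations of same-letter deviations were 0.0531, -0.196, 0.0245 and 0.185, inside the range of different letters (-0.293 to 0.295). No pairing by letter was seen, but so few values cannot settle it. With the replicate block the count was again 3424, with 3306 of the genes shared. GC content and length offsets gave 2283 higher and 2054 lower. Of 97 named genes that were called, 89 kept their call in all of 16 settings; the 2-fold minimum was not used for single genes. The lung count of 33 was 63 with DESeq2, 1924 with limma and library weights, 1 with the 2-fold minimum, 6 with only the compared groups, 12 with thinned counts, 62 with GC content and length offsets, and 6 to 84 when libraries were left out (19, 65 and 6 without lung shAsns-1 A, B and D; 16, 7, 11 and 84 without lung shAsns-2 A to D). The replicate block gave 35 there. The count of 1468 in the difference between sites was 5032 with limma, 83 with the 2-fold minimum, 2250 with GC content and length offsets, 1519 with the replicate block, and 928 to 3064 when libraries were left out (928, 955 and 3064 without lung shAsns-2 A, B and D). The cause of these shifts was not tested. Library shAsns-2 A, with 8480908 counts, limits the precision of low genes.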
